A study of Gorilla gorilla gorilla with 14 samples.

Results

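The regions described here are those listed nearest to 6 genes that move calcium out of cells across the plasma membrane, the sodium-calcium exchangers SLC8A1, SLC8A2 and SLC8A3 and the calcium pumps ATP2B1, ATP2B2 and ATP2B4. They were chosen by taking every region of the deposited count table that has a gorilla position and names one of these genes as its closest gene. This gave 46 of 204249 regions, of which 4 were promoter regions, at a listed distance of at most 1000 bp, and 42 were distal. SLC8A1 had 19 regions, ATP2B4 16, ATP2B2 8 and ATP2B1 3. The only row of SLC8A2 has no gorilla position and was left out, and SLC8A3 has no row, so 4 of the 6 genes have a region. The genes were selected on earlier results of these data, in which the SLC8A1 promoter was higher in neurons. Values that set neurons against another cell type are therefore descriptions here and are printed without a p-value. Where a region is named as called in N, or drawn as such, the adjusted threshold only sorts the regions. It lends the choice of genes no support.

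The assay was bulk ATAC-seq, which reads where a transposase can reach the DNA, on 4 cell types sorted from cerebral organoids of gorilla at 8 weeks. All organoids came from 1 induced pluripotent stem cell line, GC1, with no treatment or genotype named. The groups were apical radial glia, the stem cells at the ventricle (aRG, n = 3), basal radial glia, stem cells that have left it (bRG, n = 2), basal intermediate progenitors, which are committed to making neurons (bIP, n = 5), and neurons labelled as positive for BCL11B (N, n = 4). Whether the libraries of 1 group stem from different cultures is not stated, so the p-values reflect the spread of these libraries only, which may be technical. Library numbers fall into 2 runs, here the first and the second series. N replicates 3 and 4, bIP replicates 4 and 5, aRG replicate 3 and both of bRG make up the second.

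Cells keep free calcium in the cytosol far below the level outside, so that its entry can act as a signal. Sodium-calcium exchangers use the sodium gradient to move large amounts of calcium out after a strong influx, and can run in reverse. The plasma membrane calcium pumps use ATP and bind calcium more tightly, which suits them to holding the resting level. SLC8A1 is the exchanger of heart muscle and is also used in the brain, SLC8A2 and SLC8A3 are exchangers of brain, the latter also of skeletal muscle, ATP2B1 is found in most cells, ATP2B2 is typical of neurons and sensory hair cells, and ATP2B4 is widely used, red blood cells included.

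Totals ranged from 12834983 to 26660427 counts per library, and the limit that a count of 0 allows, 3 counts, lay between 0.114 and 0.208 CPM (counts scaled by TMM to a total of 1000000). Promoters of 8 radial glia genes summed to 416 to 460 CPM in aRG and 344 to 383 in bRG, against 180 to 286 in bIP and 126 to 162 in N, and all 8 were lower in bIP than in aRG. Promoters of 7 neuron genes summed to 68.9 to 88.5 CPM in aRG, 182 to 301 in bIP and 177 to 271 in N. The promoter of BCL11B, the gene that labels N, did not stand out there, at 20.3 CPM in N against 23.6 in bIP and 19.7 in aRG.

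The clearest pattern lay at SLC8A1, whose promoter was nearly closed in progenitors and open in neurons, while most of its distal regions were highest either in radial glia or in neurons. ATP2B4 kept an open promoter in every cell type and had distal regions that opened in bIP. ATP2B2 had a promoter that passed in no comparison between progenitors. Of the distal regions listed under it, 1 rose in bIP against both kinds of radial glia and 1 was nearly lost in N. The 3 distal regions of ATP2B1 were weak.

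Between bRG and aRG, edgeR's quasi-likelihood test called 0 of the 46 regions at an adjusted p under 0.05, where it called 0% of all 200931 regions tested. At an unadjusted p under 0.05 there were 3 of the 46 and 8197 of all regions, and DESeq2 called 0 of the 46 and 7 of all. For 20 of the 46 the difference had a 95% interval inside 2-fold, and for the others the interval reached past 2-fold. With only these groups in the fit, 1 region was called, the ATP2B2 region at 35049 bp (log2 −1.69 ± 0.30 SE, adjusted p = 0.000631). With all groups in the fit, the same region stood at log2 −1.29 ± 0.46 (adjusted p = 0.987). The share of all regions called in the smaller fit is not given, so nothing is read from this call.

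Between bIP and aRG, 22 of the 46 regions changed, 9 higher in bIP (19.6%, against 24% of all regions) and 13 lower (28.3%, against 20.9%). The median log2 difference was 0.01 over the 46 and 0.03 over all regions tested. Between bIP and bRG, 11 rose (23.9%, against 20.4% of all regions) and 8 fell (17.4%, against 16.1%), with medians of 0.12 and 0.04. These shares lay near those of all regions. Of the 22 calls against aRG, 16 held whichever library was left out, and of the 19 against bRG, 11 did. In every other setting that gave a value, 11 of the 22 and 0 of the 19 held. All 19 were lost with the replicate number as a block. Without bRG replicate 1 the number called against bRG was 11. Within the first series 24 were called between bIP and aRG, and fewer within the second, which has 1 aRG library. No share of all regions is given for these smaller fits. The changes in number are therefore not read as results about the members. All bRG libraries belong to the second series.

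N against bIP gave 19 regions higher (28.8% of all regions) and 10 lower (26.4%). N against aRG gave 20 higher (37.1% of all regions) and 14 lower (29.2%), and N against bRG gave 19 higher (32.2%) and 12 lower (25.8%). Since the genes were chosen on the N values, nothing is read from these counts. By gene, N exceeded bIP at 14 of the 19 SLC8A1 regions and fell short at 1, against 4 and 5 of the 16 ATP2B4 regions, 0 and 4 of the 8 ATP2B2 regions, and 1 and 0 of the 3 ATP2B1 regions.

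**Figure D1:**
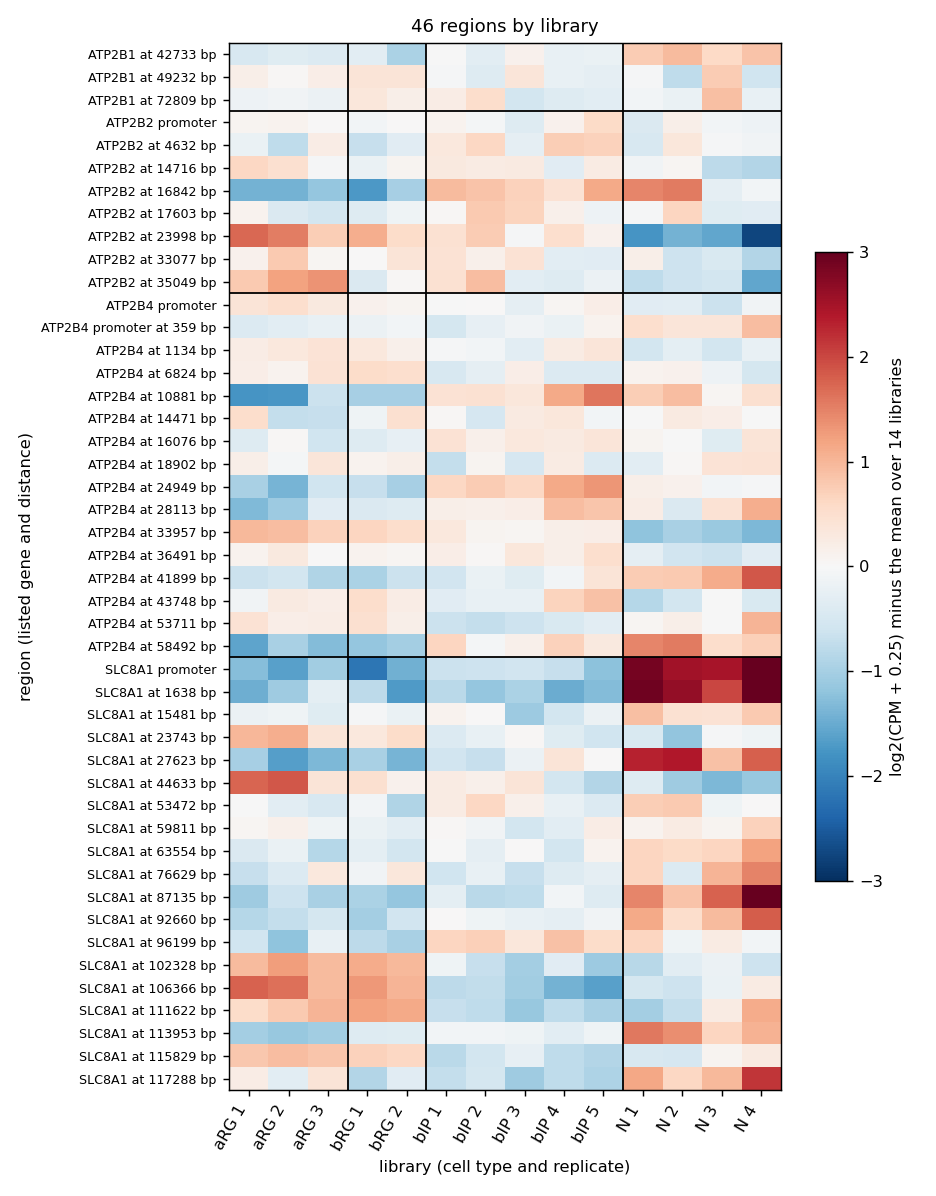
Accessibility of all 46 regions (rows, by listed gene and distance) in the 14 libraries (columns, ordered by cell type), as log2(CPM + 0.25) minus the mean of the row over the libraries; red is above and blue below that mean. The SLC8A1 promoter and the region at 1638 bp are red in all 4 N libraries. Of the SLC8A1 regions from 102328 bp outward, those at 113953 and 117288 bp are red in N. The rest of these rows are mostly red in radial glia.

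The SLC8A1 promoter region (chromosome 2A, 56738640 to 56740291, build gorGor6) read 1.34, 0.998 and 1.62 CPM in the aRG libraries and 0.607 and 1.17 in the bRG libraries. It read 2.23, 2.27, 2.36, 2.17 and 1.40 CPM in bIP. The N libraries read 28.2, 22.0, 21.4 and 42.7 CPM. All 4 N libraries lay far above the other 10, and the progenitor groups overlapped with their neighbours: 1 bIP library lay inside the aRG range, and so did 1 bRG library. Bulk values cannot tell more cells with an open promoter from a promoter that is more open in each cell.

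Group means were 0.889 ± 0.399 CPM in bRG, 1.32 ± 0.311 in aRG, 2.08 ± 0.389 in bIP and 28.6 ± 9.89 in N (SD). For N the log2 difference was 3.76 ± 0.23 against bIP (SE), 4.39 ± 0.30 against aRG and 5.04 ± 0.38 against bRG. It was 3.48 against bIP within the first series and 4.15 within the second. The difference placed this promoter at rank 21 of 19305 genes, 1 promoter region a gene. The genes were chosen on high N values of this promoter, so a high rank was given in advance and is a description. Between progenitors the promoter did not pass against aRG (bIP log2 0.63 ± 0.29, adjusted p = 0.0811). It passed against bRG (log2 1.28 ± 0.38, adjusted p = 0.00965), but not without bRG replicate 1 (adjusted p = 0.184) or within the second series (0.0774).

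**Figure D2:**
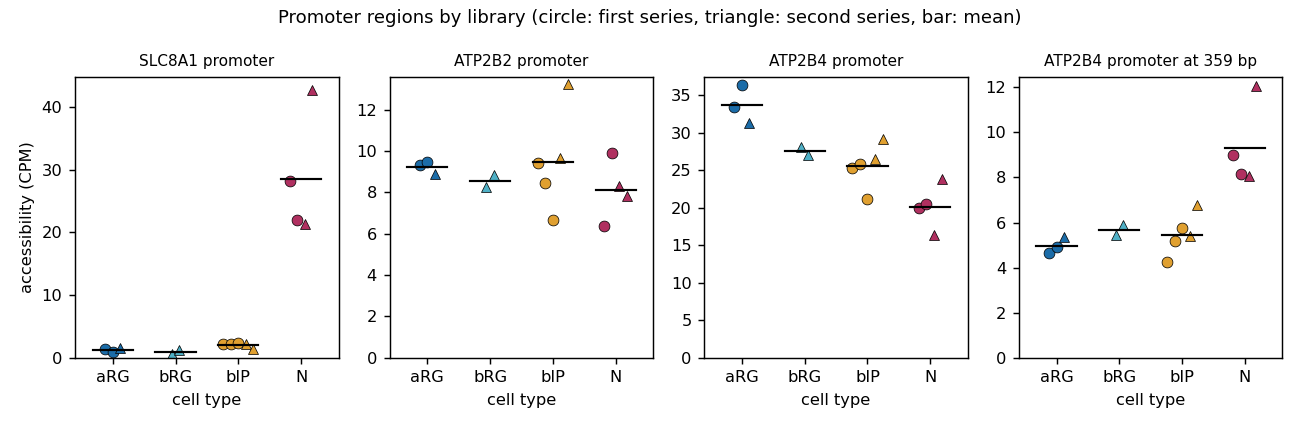
Accessibility (CPM, linear axes from 0) of the 4 promoter regions by cell type; each point is a library, circles are the first library series, triangles the second, and bars are group means. At SLC8A1 the N libraries lie between 21.4 and 42.7 CPM and all others at or below 2.36, while at ATP2B2 the bIP and N points span those of aRG and bRG.

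Outside the promoter limit, the nearest SLC8A1 region, at 1638 bp (2A, 56737398 to 56737896), had the same pattern. It read 0.316, 0.499 and 1.03 CPM in aRG, 0.657 and 0.234 in bRG, and 0.309 to 0.643 in bIP. In N it read 11.6, 9.51, 6.0 and 16.2 CPM, again above every other library. Per kb of region, the mean level was 21.7 CPM in N against 0.941 in bIP, beside 17.3 and 1.26 at the promoter. Its log2 difference of 4.50 ± 0.33 against bIP was the largest of the 46 regions. N replicate 4 was the highest library at both regions. The region just inside the promoter limit of 1000 bp was that of ATP2B4 at 359 bp, and the nearest outside were that of ATP2B4 at 1134 bp and this one.

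The other cell types that use this exchanger were checked by their markers. Of 5 muscle genes, 1 promoter was higher and 1 lower in N than in bIP, and their summed level was 34.7 to 53.8 CPM in N and 39.2 to 67.8 in bIP. The higher one was that of MYOD1, at 6.80 CPM in N, 4.16 in bIP, 4.58 in bRG and 5.31 in aRG. The lower one was that of MYH6. The promoter of TNNT2, which encodes cardiac troponin T, stood at 0.425 CPM in N and 0.516 in aRG. That of MYH6, a heart muscle myosin gene of the same list, stood at 15.4 CPM in bIP, 7.64 in N, 2.14 in bRG and 1.35 in aRG. Markers of GABAergic neurons summed to 66.9 to 95.1 CPM in N and 93.2 to 137 in bIP, with 1 of 7 higher in N and 4 lower. Their part in the SLC8A1 values was not tested.

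All 18 distal SLC8A1 regions lie on the lower-coordinate side of the listed start, from 1638 to 117288 bp away. The gene is read towards lower coordinates in the human genome, so this is the side of the gene body. Exon and intron positions were not used here. Another 29 regions farther along are listed under the antisense RNA SLC8A1-AS1 and fell outside the rule. Of those, 15 were higher and 2 lower in N than in bIP, beside 28.8% and 26.4% of all regions.

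Summed over the 18 distal regions, the level was 73.0 ± 10.3 CPM in aRG and 59.5 ± 3.99 in bRG, then 47.9 ± 5.48 in bIP and 90.2 ± 21.2 in N (SD). Of the 19 SLC8A1 regions, promoter included, 7 fell (36.8%, against 20.9% of all regions) and 3 rose (15.8%, against 24%) from aRG to bIP. From bRG to bIP 6 fell (31.6%, against 16.1% of all regions) and 4 rose (21.1%, against 20.4%).

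The largest fall was at 106366 bp (2A, 56632195 to 56633823). It read 15.7, 14.5 and 8.68 CPM in aRG, 11.2 and 9.13 in bRG, and 2.46, 2.52, 2.01, 1.5 and 1.26 in bIP. The 5 radial glia libraries lay above all bIP libraries, with no overlap. The log2 difference of bIP was −2.71 ± 0.25 against aRG (adjusted p = 3.52e-09) and −2.55 ± 0.31 against bRG (adjusted p = 6.16e-07), and it was −2.67 and −2.65 against aRG within the first and second series. In N the region stood at 3.00, 2.79, 3.80 and 5.26 CPM, above every bIP library.

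Other regions nearby fell in the same way. They are named after their values were seen. At 102328 bp the mean went from 3.41 ± 0.451 CPM in aRG and 3.36 ± 0.25 in bRG to 0.911 ± 0.338 in bIP (log2 −1.85 ± 0.28 against aRG, adjusted p = 4.33e-06). At 111622 bp it went from 2.58 ± 0.453 and 3.41 ± 0.115 CPM to 0.648 ± 0.112 (log2 −2.02 ± 0.34, adjusted p = 2.53e-05). At 115829 bp the log2 difference was −1.77 ± 0.27 (adjusted p = 5.66e-06). These 4 regions, spread over the far end of the listed stretch, fell against both kinds of radial glia, whichever library was left out. With the replicate number as a block, the falls against bRG did not pass (adjusted p 0.0722 to 0.849).

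A region with the opposite course lay between them, and 1 beyond them was highest in N. The region at 113953 bp read 0.553, 0.499 and 0.539 CPM in aRG, 1.01 and 1.03 in bRG, 1.29, 1.29, 1.25, 1.06 and 1.26 in bIP, and 4.64, 4.08, 2.31 and 3.14 in N. No library of bIP or N overlapped with aRG, and N lay above bIP. It rose from aRG to bIP (log2 1.22 ± 0.30, adjusted p = 0.00154), though not within the second series (log2 1.09, adjusted p = 0.184). The difference from bRG to bIP did not pass (log2 0.05 ± 0.33, adjusted p = 0.935). The region at 117288 bp fell from 1.28 ± 0.360 CPM in aRG to 0.558 ± 0.114 in bIP (log2 −1.22 ± 0.35, adjusted p = 0.0061, and 0.0504 without aRG replicate 1) and stood at 3.29 ± 1.77 in N.

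**Figure D3:**
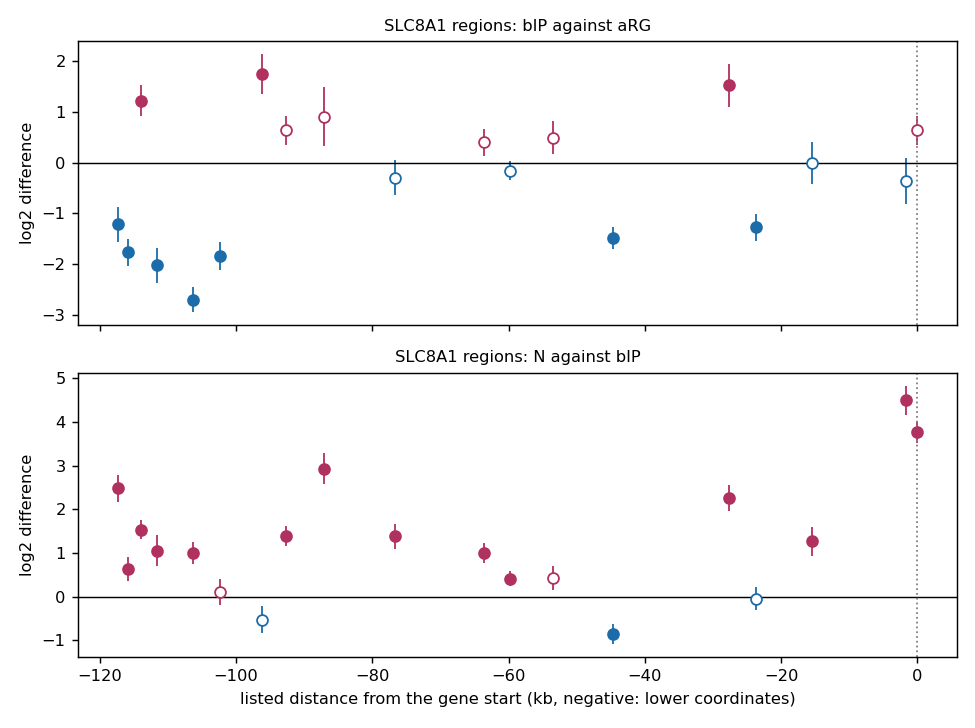
Log2 difference (y axis, bars ± 1 SE) of each SLC8A1 region by its listed distance from the gene start in kb (x axis, negative towards lower coordinates), for bIP against aRG (top) and N against bIP (bottom); filled points passed an adjusted p of 0.05, red is above and blue below 0. The promoter at 0 does not pass in the top panel and lies at 3.76 in the bottom one, and 5 of the 6 regions from 102328 bp outward are below 0 at the top. Filling in the bottom panel is a description only, since the genes were chosen on N values.

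Closer to the gene start, the region at 44633 bp (2A, 56694698 to 56695487) was the only SLC8A1 region called lower in N than in bIP. It read 9.56, 10.5 and 3.63 CPM in aRG, 3.84 and 2.95 in bRG, 3.22, 3.04, 3.61, 1.77 and 1.35 in bIP, and 1.99, 1.16, 0.913 and 1.08 in N. The aRG libraries divided by series, with the second-series library at the level of bRG. The region fell from aRG to bIP (log2 −1.49 ± 0.21, adjusted p = 2.51e-06) and from bRG to bIP (log2 −1.12 ± 0.28, adjusted p = 0.0026). The latter did not pass without bRG replicate 1 (adjusted p = 0.0699) or without the series term (log2 −0.40, adjusted p = 0.512). N lay below bIP by a log2 difference of −0.85 ± 0.23.

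The strongest distal SLC8A1 region, at 59811 bp (2A, 56677800 to 56680358), was open throughout. It read 31.7, 33.7 and 27.9 CPM in aRG, 26.7 and 24.6 in bRG, 31.2, 28.3, 20.8, 24.4 and 35.3 in bIP, and 32.9, 36.3, 32.2 and 49.1 in N. Both bRG libraries lay below aRG and N, and bIP overlapped with every group. Neither bIP contrast passed (log2 −0.16 ± 0.18 against aRG, adjusted p = 0.521, and 0.19 ± 0.23 against bRG, adjusted p = 0.587).

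A pair of weak SLC8A1 regions, named after their values were seen, were highest in N. At 27623 bp the mean was 0.462 ± 0.161 CPM in aRG, 1.35 ± 0.498 in bIP and 6.64 ± 2.83 in N. The rise from aRG to bIP (log2 1.52 ± 0.43, adjusted p = 0.00443) did not pass without aRG replicate 2 (0.0511). The difference from bRG to bIP did not pass (log2 1.24 ± 0.50, adjusted p = 0.0549). At 87135 bp aRG and bRG libraries lay at or near the limit of 3 counts, at 0.0937 to 0.25 CPM, and N read 1.87, 1.16, 2.40 and 6.05 CPM. There bIP passed against bRG (log2 1.95 ± 0.72, adjusted p = 0.0348), though not without bRG replicate 1 (0.0991) or 2 (0.214). It did not pass against aRG (log2 0.90 ± 0.58, adjusted p = 0.225). At 96199 bp bIP was the highest group, with 1.09 ± 0.183 CPM against 0.310 ± 0.183 in aRG (log2 1.75 ± 0.39, adjusted p = 0.000611) and 0.742 ± 0.254 in N. This rise did not pass within the second series (log2 1.25, adjusted p = 0.16).

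By likeness over the 14 libraries, the promoters closest to that of SLC8A1 were AC090821.3 (Pearson r 0.995), C2orf88 (0.994), AC099506.3 (0.994), CRYGA (0.992) and RNU1-82P (0.992). The correlation used log2(CPM + 1) and 19304 promoters, and the libraries share cell type, series and scaling. Mean levels in bIP and N were 0.959 and 11.1 CPM at AC090821.3, 2.55 and 10.2 at C2orf88, and 1.82 and 18.8 at CRYGA, a lens crystallin gene. In all 5, N was the highest group and bRG the lowest.

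ATP2B1, the pump found in most cells, has no promoter region under the rule. The region that holds its listed start (chromosome 12, 85691543 to 85693972) is listed under the antisense RNA ATP2B1-AS1. That region was named after its values were seen. It read 81.1, 95.6 and 78.9 CPM in aRG, 74.5 and 66.1 in bRG, 53.7 to 99.4 in bIP and 44.4 to 83.6 in N. Both bRG libraries lay below aRG, and bIP and N overlapped with both. Neither bIP contrast passed (log2 −0.19 ± 0.20 against aRG, adjusted p = 0.489, and 0.12 ± 0.25 against bRG, adjusted p = 0.746).

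The ATP2B1 region at 42733 bp (12, 85649035 to 85649622) read 0.553, 0.624 and 0.588 CPM in aRG, 0.657 and 0.328 in bRG, and 0.870, 0.647, 0.971, 0.707 and 0.725 in bIP. In N it read 1.64, 1.90, 1.44 and 1.78 CPM, above every other library (log2 1.11 ± 0.26 against bIP). The region at 49232 bp (12, 85641362 to 85643094) stood at 1.49 ± 0.106 CPM in aRG and 1.82 ± 0.005 in bRG, then 1.25 ± 0.332 in bIP and 1.30 ± 0.808 in N, with N libraries from 0.679 to 2.45. None of the 3 ATP2B1 regions passed between progenitor types.

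The promoter of ATP2B2 (chromosome 3, 10758390 to 10760755), the pump typical of neurons, was open in every group. It read 9.33, 9.48 and 8.87 CPM in aRG, 8.24 and 8.85 in bRG, 9.42, 8.48, 6.66, 9.68 and 13.2 in bIP, and 6.39, 9.92, 8.31 and 7.84 in N. Both bRG libraries lay just below aRG, inside the ranges of bIP and N. For bIP the log2 difference was 0.02 ± 0.20 against aRG (adjusted p = 0.953, 95% interval −0.39 to 0.43) and 0.26 ± 0.25 against bRG (adjusted p = 0.466). That of N against bIP was −0.24 ± 0.18 and turned to 0.11 with loess offsets.

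Its distal regions were less even. At 23998 bp (3, 10783554 to 10784551) the libraries read 7.43, 6.49 and 3.63 CPM in aRG, 4.70 and 3.14 in bRG, 2.91, 3.69, 2.01, 3.05 and 2.27 in bIP, and 0.429, 0.611, 0.528 and 0.0938 in N. N lay below all others, with 1 library under its limit of 3 counts, and bIP overlapped with aRG by 1 library and with bRG. The fall from aRG to bIP passed (log2 −0.99 ± 0.26, adjusted p = 0.00313), but not within the second series (log2 −0.44, adjusted p = 0.57). For N it was −2.75 ± 0.33 against bIP and −3.74 ± 0.34 against aRG, the lowest of the 46 regions in both.

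At 16842 bp (3, 10776384 to 10777048), named after its values were seen, ATP2B2 showed the opposite course. The libraries read 0.751, 0.749 and 0.932 CPM in aRG, 0.556 and 1.08 in bRG, and 4.84, 4.53, 4.02, 3.36 and 5.55 in bIP. The bIP libraries lay above all radial glia libraries. The rise passed against aRG (log2 2.51 ± 0.37, adjusted p = 3.91e-06) and bRG (log2 2.08 ± 0.45, adjusted p = 0.000615), and was 2.59 and 2.25 against aRG within the first and second series. The N libraries divided by series, with 7.06 and 7.54 CPM in the first against 1.97 and 2.25 in the second.

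The other ATP2B2 regions changed less or were weaker. At 14716 bp (3, 10774143 to 10775128), its strongest distal region by the mean of the group means, the level was 5.71 ± 1.34 CPM in aRG and 4.14 ± 0.637 in bRG, then 4.86 ± 0.843 in bIP and 3.27 ± 1.13 in N. Neither bIP contrast passed there (log2 −0.17 ± 0.20 against aRG, adjusted p = 0.526). At 35049 bp the aRG libraries, 2.21, 3.06 and 3.38 CPM, lay above both bRG libraries, 0.809 and 1.22. The fall there from aRG to bIP (log2 −1.08 ± 0.32, adjusted p = 0.00651) did not pass without aRG replicate 3 (0.151) or within the first series (log2 −0.59, adjusted p = 0.0835). A further 30 regions are listed under ATP2B2-IT1 and ATP2B2-IT2, transcripts within the same stretch, and fell outside the rule. Of 21 under ATP2B2-IT1, 11 were higher and 3 lower in bIP than in aRG (24% and 20.9% of all regions). In N against bIP, 4 of them were higher and 11 lower (28.8% and 26.4%). Of 9 under ATP2B2-IT2, 0 were higher and 2 lower in bIP than in aRG, and 1 was higher and 1 lower in N than in bIP.

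ATP2B4, the widely used pump, had 2 promoter regions. The main one (chromosome 1, 174345184 to 174346089) was the strongest promoter of the 4 per kb of region in every group, at 37.3 CPM per kb in aRG and 30.5 in bRG, then 28.3 in bIP and 22.3 in N. It read 33.5, 36.4 and 31.4 CPM in aRG, 28.1 and 27.1 in bRG, 25.3, 25.8, 21.2, 26.6 and 29.1 in bIP, and 20.0, 20.5, 16.3 and 23.9 in N. All aRG libraries lay above all others, bRG lay within the bIP range, and N overlapped with bIP. The fall from aRG to bIP passed narrowly (log2 −0.40 ± 0.16, adjusted p = 0.0447). It did not pass without any 1 of 8 libraries (aRG replicate 1 or 2, either bRG library, bIP replicate 1, 2 or 3, or N replicate 1; adjusted p 0.0575 to 0.114) or within the second series (log2 −0.17, adjusted p = 0.783). For N it was −0.75 ± 0.17 against aRG, and −0.26 with loess offsets.

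The neighbouring promoter region, at 359 bp (1, 174344441 to 174345007), went the other way in N. It read 4.66, 4.93 and 5.34 CPM in aRG, 5.46 and 5.90 in bRG, 4.24, 5.18, 5.76, 5.39 and 6.76 in bIP, and 9.0, 8.15, 8.07 and 12.1 in N. N lay above all other libraries, and the bIP range spanned those of aRG and bRG. N lay above bIP by log2 0.75 ± 0.17, and bIP did not pass against aRG (log2 0.11 ± 0.20, adjusted p = 0.69) or bRG (0.07 ± 0.24, adjusted p = 0.858). Just outside the promoter limit, at 1134 bp (1, 174346487 to 174348604), the mean was 49.4 ± 3.18 CPM in aRG and 46.7 ± 3.51 in bRG, then 41.2 ± 7.66 in bIP and 29.96 ± 3.44 in N. Neither bIP contrast passed there (log2 −0.29 ± 0.16 against aRG, adjusted p = 0.154).

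Among the 14 distal ATP2B4 regions, the strongest gain in bIP in absolute level was at 10881 bp (1, 174356160 to 174358227), on the gene-body side. It read 4.66, 4.68 and 10.4 CPM in aRG, 8.09 and 8.06 in bRG, 22.1, 22.5, 20.9, 36.0 and 50.0 in bIP, and 27.3, 31.2, 17.2 and 22.9 in N. All bIP and N libraries lay above all radial glia libraries, and aRG replicate 3 lay above bRG. The rise to bIP was log2 2.17 ± 0.27 against aRG (adjusted p = 4.01e-07) and 2.15 ± 0.33 against bRG (adjusted p = 1.37e-05). Against aRG it was 2.24 within the first series and 2.04 within the second.

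A further 3 ATP2B4 regions on the other side of the start, named after their values were seen, also rose in bIP against both kinds of radial glia. At 24949 bp the mean went from 1.36 ± 0.440 CPM in aRG and 1.49 ± 0.252 in bRG to 5.63 ± 1.35 in bIP (log2 2.00 ± 0.25 against aRG, adjusted p = 2.78e-07) and was 2.95 ± 0.266 in N. At 28113 bp it went from 6.10 ± 2.40 and 8.36 ± 0.238 CPM to 16.0 ± 4.50 (log2 1.36 ± 0.20, adjusted p = 3.41e-06). At 58492 bp it went from 0.360 ± 0.132 and 0.436 ± 0.0453 CPM to 1.65 ± 0.416 (log2 2.30 ± 0.38, adjusted p = 1.78e-05). The calls at these regions held whichever library was left out. With the replicate number as a block, those against bRG did not pass (adjusted p 0.0712 to 0.311).

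ATP2B4 regions of the opposite course were also present. At 33957 bp (1, 174310533 to 174311470) the libraries read 18.8, 18.2 and 15.5 CPM in aRG, 15.0 and 13.8 in bRG, 11.8, 10.0, 9.92, 10.7 and 10.8 in bIP, and 3.98, 4.69, 4.23 and 3.57 in N. The 4 groups did not overlap and stepped down from aRG over bRG and bIP to N. The step from aRG to bIP passed (log2 −0.70 ± 0.16, adjusted p = 0.000891), that from bRG did not (log2 −0.49 ± 0.20, adjusted p = 0.0597). The first did not pass within the second series (log2 −0.53, adjusted p = 0.268). The log2 difference of N against bIP, −1.37 ± 0.16, was the lowest of this gene.

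At 41899 bp (1, 174302581 to 174303534) ATP2B4 had its largest log2 difference of N against bIP. The libraries read 0.751, 0.811 and 0.588 CPM in aRG, 0.556 and 0.750 in bRG, 0.795, 1.10, 0.971, 1.24 and 1.79 in bIP, and 2.42, 2.45, 3.12 and 5.44 in N. N lay above every other library (log2 1.45 ± 0.25 against bIP). At 53711 bp, named after its values were seen, bIP was the lowest group, at 4.78 ± 0.593 CPM against 8.72 ± 0.799 in aRG, 8.98 ± 1.31 in bRG and 9.27 ± 3.57 in N. The fall from aRG there passed (log2 −0.90 ± 0.21, adjusted p = 0.001), though not within the second series (log2 −0.62, adjusted p = 0.28).

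**Figure D4:**
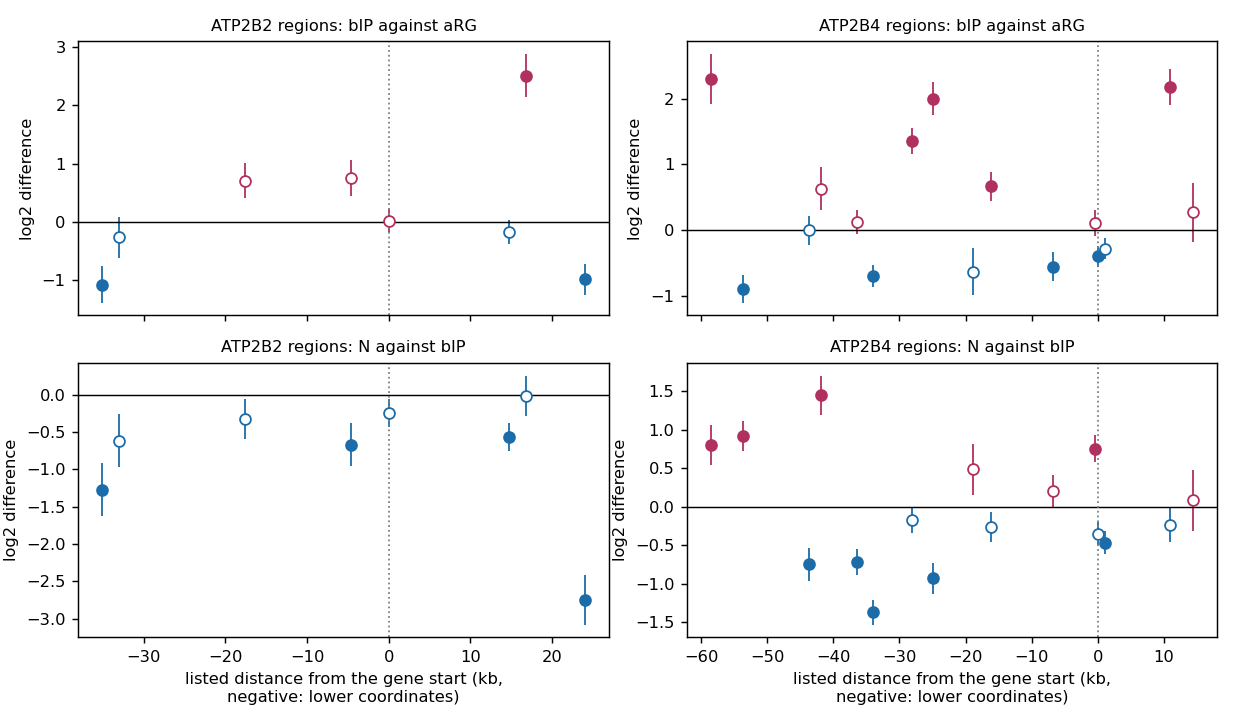
Log2 difference (y axes, bars ± 1 SE) of each ATP2B2 region (left) and ATP2B4 region (right) by listed distance from the gene start in kb (x axes, negative towards lower coordinates), for bIP against aRG (top) and N against bIP (bottom); filled points passed an adjusted p of 0.05, red is above and blue below 0. The promoters at 0 lie near 0, and the ATP2B2 regions 16842 and 23998 bp above the start lie at 2.51 and −0.99 in the top panel. Filling in the bottom panels is a description only, since the genes were chosen on N values.

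At 5 of the 46 regions the difference of N from bIP differed between the library series in edgeR's interaction term (8.33% of all regions). At ATP2B2 16842 bp it was 0.71 in the first series and −1.08 in the second, and at ATP2B4 10881 bp it was 0.43 and −1.11, so the direction turned. At SLC8A1 27623 bp it was 3.12 and 1.28, and at SLC8A1 106366 bp 0.32 and 1.70. At SLC8A1 111622 bp it was −0.084 and 1.93, where N read 0.546 and 0.747 CPM in the first series and 1.68 and 3.28 in the second. Without bIP replicate 5 the number was 2 and without N replicate 2 it was 3. What the series stand for is not given in the sources used here.

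**Figure D5:**
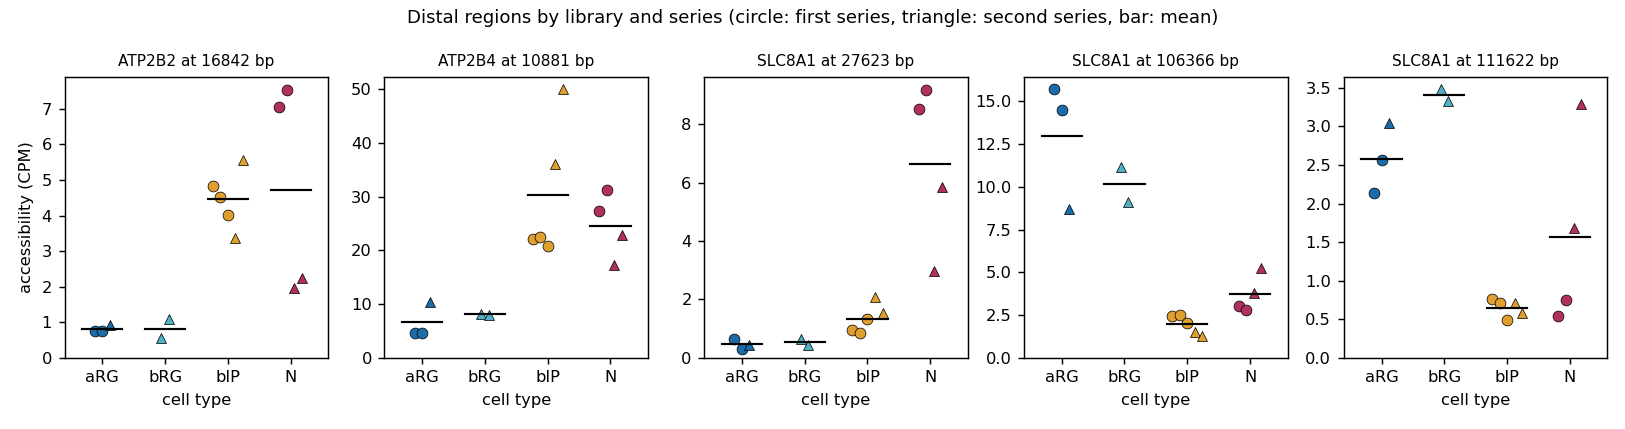
Accessibility (CPM, linear axes from 0) by cell type at the 5 regions whose N against bIP difference differed between library series; each point is a library, circles are the first series, triangles the second, bars are group means. At ATP2B2 16842 bp the first-series N libraries lie at 7.06 and 7.54 CPM and the second-series ones at 1.97 and 2.25.

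The authors' consensus peak sets, 1 per cell type, were compared with the regions of the pumps. The 19 SLC8A1 regions were not compared with peaks here, since the peak sets hold no entries for their chromosome, 2A. Of the other 27 regions, 11 were touched by a peak of the aRG set, 13 of bRG, 14 of bIP and 14 of N, against 5 to 7 after a shift of 50 kb. Peaks of all 4 sets touched 7 regions, among them the ATP2B2 promoter and the main ATP2B4 promoter. The ATP2B4 promoter region at 359 bp was touched by a peak of the N set alone. ATP2B2 at 16842 bp was touched in bIP and N, and ATP2B2 at 23998 bp in every set but N.

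Other genes of calcium handling were read at their promoters. Of 38 listed genes, 20 had a tested promoter region. Between bIP and aRG 0 rose and 1 fell (10.7% and 18.4% of 19305 promoters), namely CALB1, which encodes the calcium buffer calbindin (log2 −0.62 ± 0.19, adjusted p = 0.0088). The median was −0.19 over the 20 and −0.16 over all promoters. Between N and bIP 1 was higher and 3 were lower (13.7% and 22.3% of promoters), with medians of −0.11 and −0.13. Higher was CALB2, which encodes the buffer calretinin (log2 0.56 ± 0.17). Among the lower were ITPR2, a calcium release channel of the endoplasmic reticulum (log2 −0.91 ± 0.18), and MCUB, a subunit of the mitochondrial uniporter (−0.55 ± 0.15). Between N and aRG 1 was higher and 6 were lower (16.2% and 35.3% of promoters), with medians of −0.29 and −0.26. The remaining plasma membrane pump, ATP2B3, had no tested promoter region. ATP2A2, the pump that fills the endoplasmic reticulum, did not pass between bIP and aRG (log2 −0.31 ± 0.18, adjusted p = 0.19). It was among the 6 lower in N than in aRG (log2 −0.56 ± 0.19). NPTN, a subunit of the plasma membrane pumps, did not pass between bIP and aRG (log2 −0.22 ± 0.19, adjusted p = 0.37).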

How the data were processed

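The table deposited by the authors gives raw read counts by region and library, and names each region's closest gene and its distance. The submitters' processing notes name bcl2fastq 2.20.0, MACS2 and the builds hg38 and panTro6. Aligner, counter, version of MACS2 and any cut-site shift: not given in the sources used here. Of 218080 rows, the 13823 without a gorilla position, all with counts of 0, and 8 repeats were left out. Positions are those of the gorGor6 region names, counted from 1. The deposited distance, a value of another kind, matched that to 1 human (hg38) point per gene within 1 bp at every member region off that point, which was taken as the transcription start. Per the file headers, peak sets are in narrowPeak layout, with the authors' fold enrichment (ratio) and −log10 q. The fold entered no comparison, and −log10 q only picked the stricter part of each set. Their build is not stated and was taken as gorGor6, although they hold no entries for chromosome 2A, which the gorGor6 region names use.

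The test was that of edgeR 4.0.16, run in R 4.3.3 (TMM, filterByExpr, quasi-likelihood test, 1 mean per group plus a library series term, all 14 libraries, 9 residual degrees of freedom). Adjustment was by Benjamini and Hochberg over 200931 regions, with a threshold of 0.05, and all 46 member regions passed the filter. The script was tested on simulated data. A log2 difference comes from this model with its SE and need not equal the ratio of means. Levels are CPM as mean ± SD. The limit of 3 counts covers counting error alone, and reads made by PCR with no molecular identifiers are not independent molecules. Alternatives were DESeq2 1.42.0, other scalings and filters, no series term, a replicate block, single series and each library left out. The first series alone was added after seeing the data.

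Members, gene lists and marker lists were chosen with earlier results of these data known. Regions named by rule were all promoter regions, the 2 distal regions of a gene with the highest mean CPM, and its distal regions with the largest and smallest log2 difference of N against bIP among those called. Other genes named were the 5 promoters most correlated with that of SLC8A1 and the called members of the calcium list, except 1 that is not reported here. Sequences and motifs were not analysed here.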

Additional observations from a re-analysis of the deposited data

Results flagged for a closer look

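In 7 of 92 groups of 4 or 5 libraries, 1 library stood apart from the rest by Dixon's criterion, which chance meets in about 1 of 20 groups. High libraries were N replicate 3 at ATP2B1 72809 bp (1.01 CPM, others 0.328 to 0.390), bIP replicate 3 at ATP2B4 6824 bp (3.95, others 2.35 to 2.78), N replicate 4 at ATP2B4 53711 bp (14.6, others 7.01 to 8.02) and N replicate 4 at SLC8A1 63554 bp (5.72, others 3.6 to 3.8). Low libraries were bIP replicate 4 at ATP2B2 14716 bp (3.36 CPM, others 5.17 to 5.33), bIP replicate 5 at the SLC8A1 promoter (1.40, others 2.17 to 2.36) and bIP replicate 4 at SLC8A1 113953 bp (1.06, others 1.25 to 1.29).

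The log2 difference of N against bIP differed between the library series at 5 regions, given as second minus first series. It was −1.77 ± 0.38 (SE) at ATP2B2 16842 bp, −1.52 ± 0.29 at ATP2B4 10881 bp, −1.82 ± 0.45 at SLC8A1 27623 bp, 1.40 ± 0.38 at SLC8A1 106366 bp and 2.02 ± 0.57 at SLC8A1 111622 bp. The calls at ATP2B4 10881 bp and SLC8A1 27623 bp held in all 18 alternatives that gave a value, that at ATP2B2 16842 bp was lost in 1, that at SLC8A1 106366 bp in 2 and that at SLC8A1 111622 bp in 7.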

How the results depend on the processing

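Scaling changed no direction among called regions. With DESeq2's size factors or loess offsets the median of all regions moved by more than 0.1 (log2) in 1 comparison, N against aRG, by −0.12 and −0.14. With at least 10 CPM in 2 libraries only 11 of the 46 regions were tested, and those called numbered 6 for bIP against aRG, 7 for bIP against bRG, 9 for N against aRG, 9 for N against bRG and 7 for N against bIP. Within the second series, with 1 aRG library, 13 were called for bIP against aRG and 20 for N against aRG, and within the first series, chosen after seeing the data, 24 and 34. In the first series alone the difference of N against bIP turned at ATP2B2 16842 bp (0.71), ATP2B4 10881 bp (0.43) and SLC8A1 111622 bp (−0.084). With only the groups compared in the fit, 1 region was called between bRG and aRG. Leaving out 1 library at a time gave 11 to 22 calls for bIP against bRG and 2 to 7 for the difference between series. The stricter part of the N peak set touched 9 regions. Apart from the fewer regions or libraries that a setting leaves, the cause of these moves was not tested. No share of all regions called is given beside these counts or those with a replicate block. They describe the members alone. For all regions, calls of the series difference were higher in 48.1% with edgeR, 39.2% with DESeq2's size factors and 26.7% with DESeq2's test.

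With the replicate number as a block, 17 regions were called for bIP against aRG, 0 for bIP against bRG, 34 for N against aRG, 13 for N against bRG, 24 for N against bIP and 5 for the series difference. Whether the numbers pair the samples is not stated. Over 16 same-numbered pairs r ran from −0.27 to 0.38, 8 were over 0.1, and 3 of 14 libraries correlated best with their own number. This cannot decide it, since some of these pairs span the series. The median r was 0.15 for libraries of the same series and −0.08 for those of different series. Depth limits the weakest regions, whose levels lie near the limit of 3 counts.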
